A study of Mus musculus with 4 samples.

Results

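The genes of the respiratory chain and the ATP synthase were described here in leukocytes of the mouse left ventricle, after sham treatment and after DOCA-salt. Members were chosen by name from the 31053 genes of the count matrices. Genes whose symbols start with mt-Nd, mt-Co, mt-Cyt or mt-At form the mitochondrial set of 13 genes, and genes starting with Nduf, Sdh, Uqcr, Cox4i, Cox5, Cox6, Cox7, Cox8 or Atp5 form the nuclear set of 97 genes, so that 110 of 31053 genes were taken. The rule reads gene names only. The nuclear set holds 96 symbols, because Atp5o is listed under 2 identifiers, of which 1 had 0 UMIs (unique molecules, the unit of all counts here).

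The respiratory chain passes electrons from NADH and succinate to oxygen through complexes I to IV and pumps protons across the inner mitochondrial membrane, and the ATP synthase uses the proton gradient to make ATP. Complexes I, III and IV and the ATP synthase are built from subunits of both genomes, whereas all subunits of complex II are nuclear. The mitochondrial genes are transcribed as long precursors that are then cut into shorter RNAs, and the nuclear genes are transcribed separately.

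All mice were C57Bl6J. DOCA-salt is treatment with deoxycorticosterone acetate and salt, which raises blood pressure, and sham mice were the controls. The digested left ventricles were enriched for CD45-positive cells with beads, each mouse was marked with a hashtag antibody, and the 4 mice of a group were pooled, sorted for live CD45-positive cells and loaded as 1 library for 5′ single-cell sequencing. Group and library cannot be told apart in this design, and each difference below is between 4 mice of 1 library and 4 mice of the other. Ages, doses and the length of treatment are not given in the sources used here.

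The mitochondrial set holds 7 subunits of complex I (mt-Nd1 to mt-Nd6 and mt-Nd4l), 1 of complex III (mt-Cytb), 3 of complex IV, also called cytochrome c oxidase (mt-Co1 to mt-Co3), and 2 of the ATP synthase (mt-Atp6 and mt-Atp8). mt-Atp8 lies on chrM:7766-7969 (GRCm38, plus strand, GENCODE M21) and shares its last 43 bases, chrM:7927-7969, with the start of mt-Atp6. Its sequence is shown because it is 1 of the 2 members that passed the test in 2 classes, and because reads from the shared bases cannot be given to 1 of the genes. The capitals mark the bases shared with mt-Atp6.
mt-Atp8: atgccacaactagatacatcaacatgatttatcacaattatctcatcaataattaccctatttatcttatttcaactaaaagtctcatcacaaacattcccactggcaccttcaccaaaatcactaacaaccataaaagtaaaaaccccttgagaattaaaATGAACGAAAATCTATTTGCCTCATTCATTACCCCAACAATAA
Shorter overlaps join mt-Nd4l to mt-Nd4 (7 bases), mt-Atp6 to mt-Co3 (1 base) and mt-Nd5 to mt-Nd6 (14 bases, on opposite strands). A stretch of chromosome 1, from 24611535 to 24616197 in the same build, carries annotated copies of mt-Nd4, mt-Nd4l, mt-Nd3, mt-Co3, mt-Atp6, mt-Co2 and mt-Co1 that are 99.79% to 100% identical to them over the aligned bases. For mt-Co1 and mt-Nd4 the copies are partial, aligned over 483 of 1545 and 876 of 1378 bases. None of these copies is a gene of the count matrices, and how reads with several placements were handled is not given in the sources used here. The counts of these 7 members, all 3 complex IV genes among them, are uncertain to that extent. Only annotated copies were aligned. mt-Atp8 lies between mt-Co2 and mt-Atp6 on the mitochondrial genome, and the stretch between their copies (24614651 to 24614885) was not aligned. The same uncertainty may thus hold for mt-Atp8.

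The sham library gave 4067 cells with a median of 2808 UMIs and the DOCA-salt library 6863 cells with a median of 3228. The libraries shared 41 barcodes, of which 36 were kept in both. Ptprc, which encodes CD45, had a UMI in 74.9% of kept sham cells and 80.2% of kept DOCA-salt cells. Of 20 clusters, 15 took a name from marker genes, and 5 classes had enough cells per mouse for a test. These were B-like (2049 sham and 2716 DOCA-salt cells, with Cd79a, Cd79b and Ms4a1), T-like (431 and 920, Cd3e and Trac), NK-like (539 and 1251, Ncr1 and Klrb1c), macrophage-like (250 and 576, C1qa and Mrc1) and nonclassical monocyte-like cells (110 and 118, Ace and Treml4). The share of cells left out for more than 10% mitochondrial UMIs was 2.04% to 2.69% in the sham mice and 2.21% to 4.98% in the DOCA-salt mice, highest in DOCA-salt mouse 3.

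The balance between the sets differed by class. In sham mice the mitochondrial set took 2.41% ± 0.104 of all UMIs (SD, n = 4) in B-like cells, 2.30% ± 0.208 in macrophage-like cells, 2.11% ± 0.0811 in T-like cells, 1.53% ± 0.199 in nonclassical monocyte-like cells and 1.32% ± 0.0271 in NK-like cells. The nuclear set ran otherwise, with 2.27% ± 0.0312 in NK-like cells, 1.82% ± 0.0658 in T-like cells, 1.63% ± 0.173 in nonclassical monocyte-like cells, 1.58% ± 0.0223 in B-like cells and 1.36% ± 0.108 in macrophage-like cells. NK-like cells thus held the smallest mitochondrial and the largest nuclear share of the 5 classes, and their log2 ratio of mitochondrial to nuclear set UMIs was -0.78 ± 0.05 in sham mice against 0.61 ± 0.05 in B-like cells. The sham mice of the B-like and macrophage-like classes overlapped in the mitochondrial share, as did those of the T-like and macrophage-like and of the nonclassical monocyte-like and NK-like classes. In the nuclear share the nonclassical monocyte-like class overlapped with the B-like and with the T-like class.

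In NK-like cells the mitochondrial set took a larger share of UMIs after DOCA-salt in every mouse, and the nuclear set did not separate the groups in any class. The mitochondrial share of NK-like cells was 1.31%, 1.30%, 1.36% and 1.31% in sham mice 1 to 4 and 1.56%, 1.51%, 1.60% and 1.47% in DOCA-salt mice 1 to 4. The lowest DOCA-salt mouse lay above the highest sham mouse, and the means were 1.32% ± 0.0271 and 1.53% ± 0.0563. The log2 ratio of mitochondrial to nuclear set UMIs in NK-like cells was -0.78 ± 0.05 in sham and -0.56 ± 0.09 in DOCA-salt mice, again without overlap. These set values carry no test, since they are sums over chosen members.

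In B-like cells the mitochondrial share was 2.43%, 2.29%, 2.54% and 2.39% in sham mice and 2.51%, 2.64%, 2.83% and 2.56% in DOCA-salt mice. Sham mouse 3 lay above DOCA-salt mouse 1, so the groups overlapped, with means of 2.41% ± 0.104 and 2.64% ± 0.144. T-like cells gave 2.19%, 2.08%, 2.16% and 2.01% in sham mice and 2.16%, 2.33%, 2.52% and 2.21% in DOCA-salt mice, which also overlapped. When the share was taken as the median over single cells, the groups of both classes no longer overlapped. It was then 2.24% to 2.39% in sham against 2.46% to 2.69% in DOCA-salt B-like cells, and 1.98% to 2.03% against 2.15% to 2.34% in T-like cells. The summed shares also stood without overlap when cells were held to at most 5% mitochondrial UMIs, at 2.26% to 2.47% against 2.47% to 2.79% in B-like cells and 1.95% to 2.01% against 2.08% to 2.43% in T-like cells. The mean log2 ratio of the sets was 0.61 in sham and 0.74 in DOCA-salt B-like cells and 0.21 and 0.34 in T-like cells, with overlap in both.

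Macrophage-like and nonclassical monocyte-like cells showed no separation in the mitochondrial share. Macrophage-like cells had 2.03%, 2.36%, 2.53% and 2.28% in sham mice and 2.15%, 2.35%, 2.88% and 2.26% in DOCA-salt mice. Nonclassical monocyte-like cells had 1.72%, 1.38%, 1.70% and 1.35% in sham mice and 1.69%, 1.92%, 1.80% and 1.63% in DOCA-salt mice. The difference of the nonclassical monocyte-like means, 0.227 percentage points, became -0.0188 as a median over cells, and that of the log2 ratio went from 0.10 to -0.13. DOCA-salt mouse 3 had the highest mitochondrial share of its group in B-like, T-like, NK-like and macrophage-like cells, and it was also the mouse with the highest share of cells over the mitochondrial limit.

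**Figure D1:**
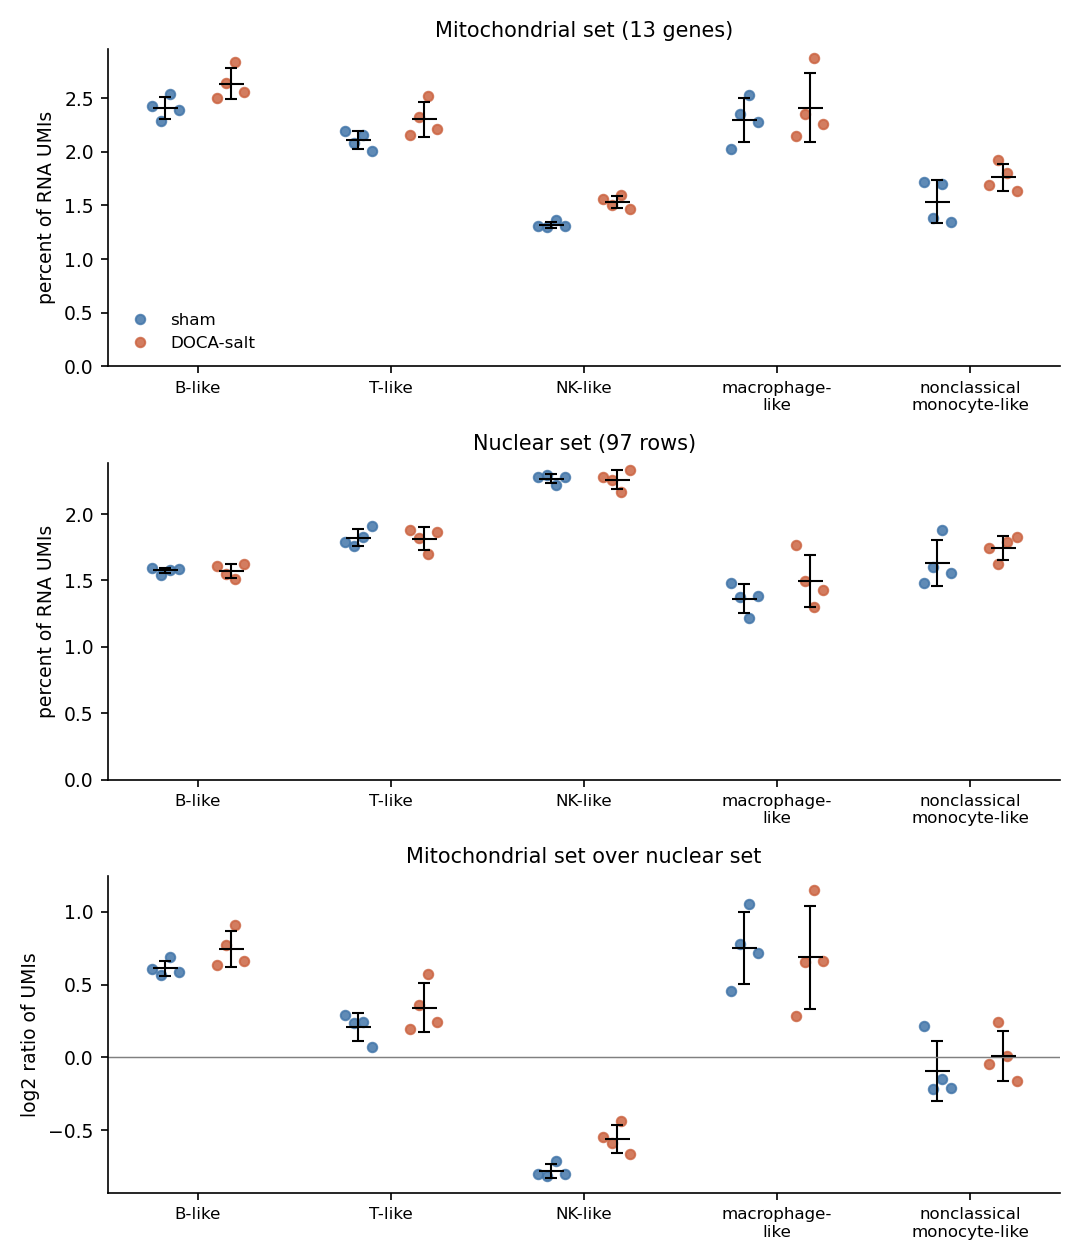
Share of all UMIs, in percent, from the 13 mitochondrial genes and from the 97 nuclear genes in each of 5 classes, with 1 point per mouse (4 sham and 4 DOCA-salt) and bars for the mean and SD. In NK-like cells the DOCA-salt mice, at 1.47% to 1.60%, lie above the sham mice, at 1.30% to 1.36%, for the mitochondrial set, and the groups overlap for the nuclear set in every class.

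Other properties of the libraries moved with these groups, and except where a value is given their part in the results was not tested. In T-like cells the median UMIs per cell averaged 4128 in sham and 5493 in DOCA-salt mice without overlap, and nonclassical monocyte-like cells also separated, at 3509.5 and 4208. Cells holding a UMI of the macrophage genes C1qa, C1qb or C1qc made up 34.7% ± 1.38 of sham and 44.6% ± 2.395 of DOCA-salt B-like cells, and 31.8% ± 5.62 and 42.9% ± 4.21 of NK-like cells, without overlap in either. The summed level of these genes did overlap, at means of 200.2 and 216 CPM (counts per 1000000 UMIs of the class and mouse) for the B-like class, 203 and 260.1 for the NK-like class. The summed B cell marker genes were lower in DOCA-salt B-like cells without overlap, at 11248 to 12267 CPM in sham and 9776 to 10831 CPM after DOCA-salt. Among NK-like cells without a C1q UMI the mitochondrial share was 1.26% to 1.39% in sham and 1.42% to 1.55% in DOCA-salt mice, still without overlap, and it also did not overlap under a limit of 5% or 20% mitochondrial UMIs per cell.

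The make-up of 2 classes differed too. Cluster 10, led by Iglc1, made up 12.3% of sham and 3.75% of DOCA-salt B-like cells, and cluster 7, the T-like cluster led by Cd4, 49.0% and 34.2% of T-like cells, without overlap in either. Within single clusters the mitochondrial share was higher in DOCA-salt mice without overlap in B-like clusters 1 (2.34% against 2.60%) and 10 (2.57% against 2.996%) and in T-like clusters 7 (2.30% against 2.55%) and 9 (1.73% against 2.03%). It overlapped in B-like clusters 2 and 3 and in T-like cluster 8.

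Gene by gene, mt-Atp8 and mt-Co3 passed the test in B-like and in NK-like cells, both higher in DOCA-salt mice, and none of the other 11 mitochondrial genes passed it in any class. In each class, UMIs were summed per mouse and tested over all genes by edgeR's quasi-likelihood test, with p adjusted by Benjamini-Hochberg over all genes tested and a threshold of 0.05. In B-like cells 2 of 13 mitochondrial genes were called, against 1.45% of all 8610 genes, and 0.395% of all genes were called higher. In NK-like cells 2 of 13 were called, against 0.998% of 6514 genes, with 0.2% called higher. By DESeq2, 1 was called in B-like and 2 in NK-like cells, where 1.19% and 1.24% of all genes with an adjusted p were called. The shares of all genes were not matched for UMI count, and mt-Atp8 and mt-Co3 had 119362 and 111899 UMIs over all cells.

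mt-Atp8 encodes a small membrane subunit of the ATP synthase. Its level in NK-like cells was 1702, 1655, 1689 and 1676 CPM in sham mice 1 to 4, against 2168, 1965, 2349 and 2000 CPM in DOCA-salt mice 1 to 4. Every DOCA-salt mouse lay above every sham mouse, and the log2 change was 0.29 with an SE of 0.07 (edgeR adjusted p = 0.0378). In B-like cells mt-Atp8 was 3276, 2975, 3435 and 3133 CPM in sham, against 3613, 3798, 4177 and 3672 CPM after DOCA-salt, without overlap, with a log2 change of 0.26 and an SE of 0.05 (edgeR adjusted p = 0.0253). In T-like cells it had the same log2 change of 0.26, but sham mouse 1, at 3222 CPM, lay above DOCA-salt mice 1 and 4, at 3186 and 3187 CPM, and the edgeR adjusted p was 0.389. mt-Atp6 encodes the other mitochondrial subunit of the ATP synthase and shares bases with mt-Atp8. It overlapped between groups in all 5 classes, with log2 changes from -0.02 in macrophage-like to 0.12 in T-like cells. Over all cells mt-Atp8 had 119362 UMIs and mt-Atp6 48726. Whether these genes were counted from separate RNAs was not tested, so their values do not show that they changed apart.

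mt-Co3 encodes the structural subunit 3 of cytochrome c oxidase. Its level in NK-like cells was 1567, 1588, 1669 and 1516 CPM in sham, against 2002, 2027, 1958 and 1883 CPM after DOCA-salt. All DOCA-salt mice lay above all sham mice, with a log2 change of 0.27 and an SE of 0.07 (edgeR adjusted p = 0.0449). In B-like cells it was 3000, 2899, 3164 and 3071 CPM in sham, against 3282, 3558, 3679 and 3413 CPM after DOCA-salt, with a log2 change of 0.21 and an SE of 0.05 (edgeR adjusted p = 0.0493). These groups did not overlap either.

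All 4 calls lay near the threshold. When each of the 8 mice was left out in turn, the edgeR call of mt-Atp8 was lost for 4 mice in B-like cells and for 5 in NK-like cells, and that of mt-Co3 for 7 mice in each class. mt-Atp8 was still called without sham mouse 3 or DOCA-salt mouse 1, 3 or 4 in B-like cells, and without sham mouse 2 or DOCA-salt mouse 2 or 4 in NK-like cells. mt-Co3 was still called without DOCA-salt mouse 1 in B-like and without sham mouse 2 in NK-like cells. Over these fits the adjusted p of mt-Atp8 ran from 0.0206 to 0.0912 in B-like and from 0.0265 to 0.13 in NK-like cells, and that of mt-Co3 from 0.0333 to 0.131 and from 0.0404 to 0.173. All 4 calls were also lost among cells without a C1q UMI. The log2 changes themselves, over all alternatives including those with 1 mouse left out, ran from 0.23 to 0.29 for mt-Atp8 and from 0.19 to 0.24 for mt-Co3 in B-like cells, and from 0.24 to 0.33 and from 0.21 to 0.31 in NK-like cells.

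The catalytic subunits mt-Co1 and mt-Co2 lay higher in DOCA-salt mice in several classes without passing the test. mt-Co1 in NK-like cells was 2734, 2721, 2779 and 2685 CPM in sham, against 3171, 3251, 3597 and 3063 CPM after DOCA-salt, a log2 change of 0.22 (edgeR adjusted p = 0.162). In B-like cells mt-Co1 was 5126 to 5392 CPM in sham, against 5412 to 6646 CPM after DOCA-salt, in T-like cells 4373 to 4681 and 4806 to 5749 CPM. The groups were without overlap in all 3 lymphoid classes. mt-Co2 was without overlap in NK-like cells (1780 to 1951 against 2083 to 2525 CPM) and T-like cells (2470 to 2753 against 2830 to 3314 CPM), and overlapped in B-like cells.

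Of the 7 complex I genes none was called in any class, and their log2 changes ran in both directions. mt-Nd2 had a log2 change below 0 in all 5 classes, from -0.08 in NK-like to -0.26 in macrophage-like cells, except that it was 0.01 in NK-like cells with no limit on mitochondrial UMIs. In T-like cells mt-Nd2 was 896 to 1000 CPM in sham, against 777 to 876 CPM after DOCA-salt, lower without overlap (edgeR adjusted p = 0.596). mt-Nd5 in NK-like cells was 268 to 321 CPM in sham, against 347 to 406 CPM after DOCA-salt, higher without overlap (log2 change 0.27, edgeR adjusted p = 0.276). mt-Nd3 was higher without overlap in T-like cells, at 182 to 206 and 210 to 221 CPM. mt-Nd1, mt-Nd4, mt-Nd4l and mt-Nd6 overlapped wherever tested, and mt-Nd6, which lies on the other strand and had few UMIs, was not tested in nonclassical monocyte-like cells.

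mt-Cytb, the cytochrome b of complex III, overlapped between groups in all 5 classes. Its log2 change was 0.12 in B-like, 0.06 in T-like, 0.09 in NK-like, -0.06 in macrophage-like and 0.24 in nonclassical monocyte-like cells. None passed the test.

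In T-like, macrophage-like and nonclassical monocyte-like cells edgeR called 0 of 13, 0 of 13 and 0 of 12 mitochondrial genes tested. DESeq2 called 0 in each, where it called 0.871%, 1.52% and 2.42% of all genes with an adjusted p. At an unadjusted p under 0.05 there were 4 in T-like cells, 0 in macrophage-like cells and 2 in nonclassical monocyte-like cells. In B-like and NK-like cells there were 5 each. The same unadjusted limit took 13.03% of all genes in B-like, 8.41% in T-like, 9.52% in NK-like, 9.36% in macrophage-like and 12.8% in nonclassical monocyte-like cells. Of all genes edgeR called 0.409% in T-like cells (0.0757% higher), 0.319% in macrophage-like cells (0.0683% higher) and 1.96% in nonclassical monocyte-like cells (0.474% higher).

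Members higher in DOCA-salt mice without overlap numbered 3 of 13 in B-like cells (mt-Co1, mt-Atp8 and mt-Co3), against 3.29% of all genes tested, 4 of 13 in T-like cells (mt-Co1, mt-Co2, mt-Co3 and mt-Nd3) against 2.24%, and 5 of 13 in NK-like cells (mt-Co1, mt-Co2, mt-Atp8, mt-Co3 and mt-Nd5) against 3.9%. There were 2 of 12 in nonclassical monocyte-like cells (mt-Co1 and mt-Co3) against 3.38%, and 0 of 13 in macrophage-like cells against 3.64%. mt-Nd2 in T-like cells was the 1 mitochondrial gene lower without overlap, where 3.47% of all genes were, and in B-like cells 0 of 13 were, against 4.79% of all genes. The median log2 change of the mitochondrial set was 0.09 in B-like and T-like cells, 0.12 in NK-like, 0.01 in macrophage-like and 0.11 in nonclassical monocyte-like cells, and over all genes tested it was within 0.01 of 0 in each class.

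**Figure D2:**
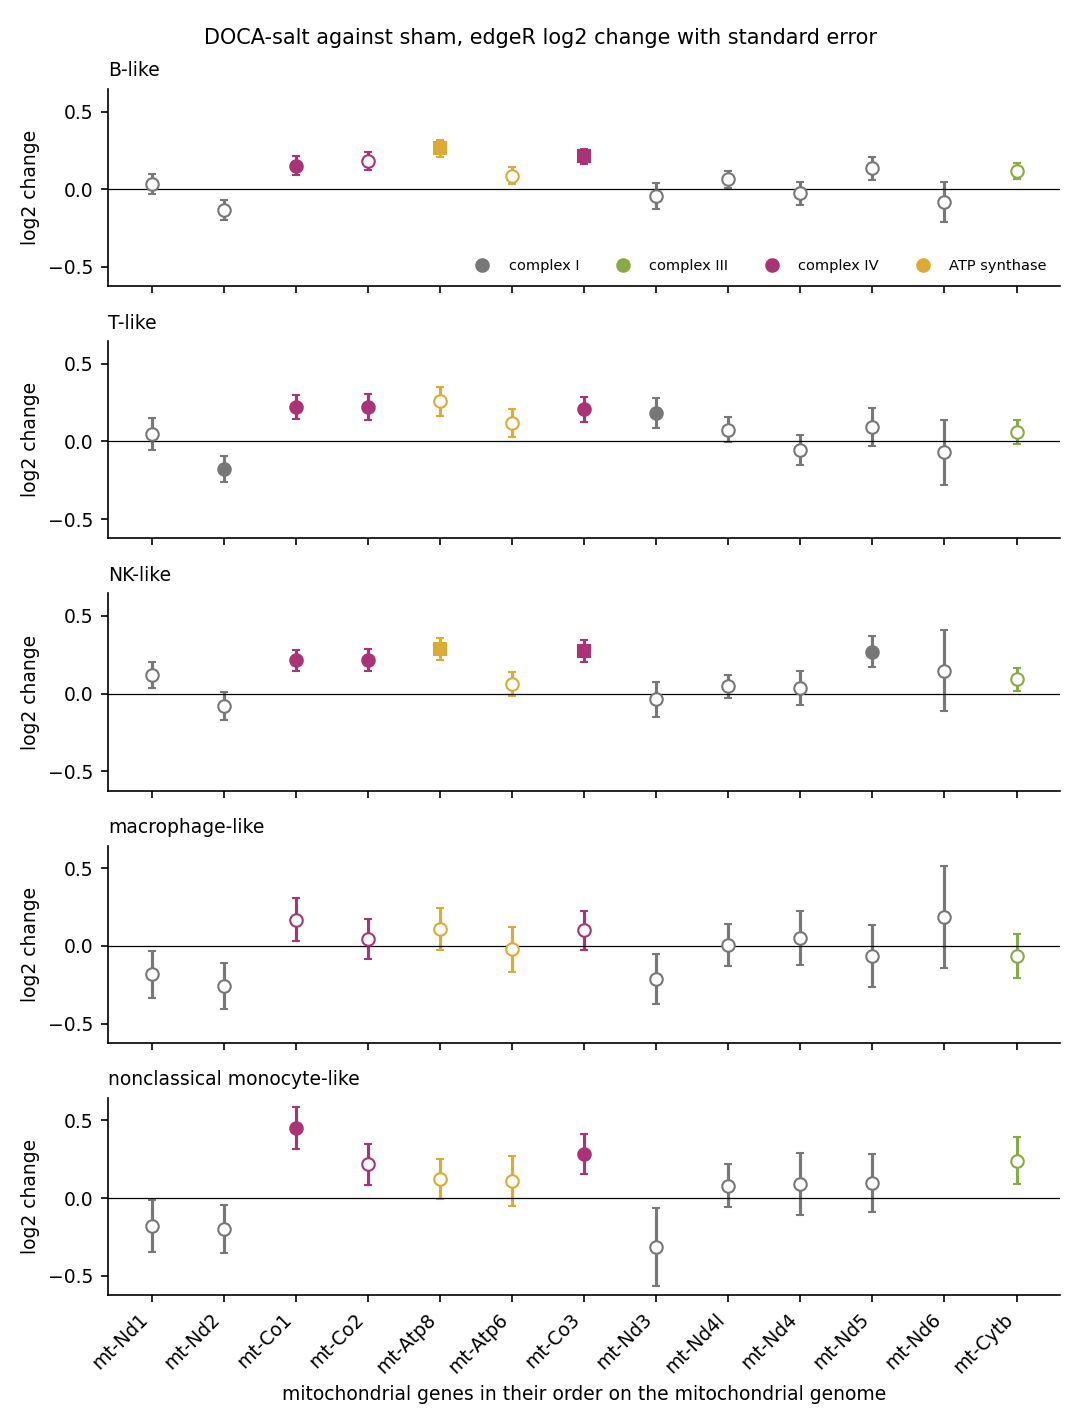
Log2 change (DOCA-salt against sham, edgeR) of each mitochondrial gene in each class, with bars for the SE. Squares mark the 4 calls, mt-Atp8 and mt-Co3 in B-like and NK-like cells, and filled symbols mark genes whose mice did not overlap. The complex IV genes lie above 0 in every class with all mice in the fit (mt-Co2 in macrophage-like cells reached -0.05 with 1 mouse left out), and the complex I genes on both sides.

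**Figure D3:**
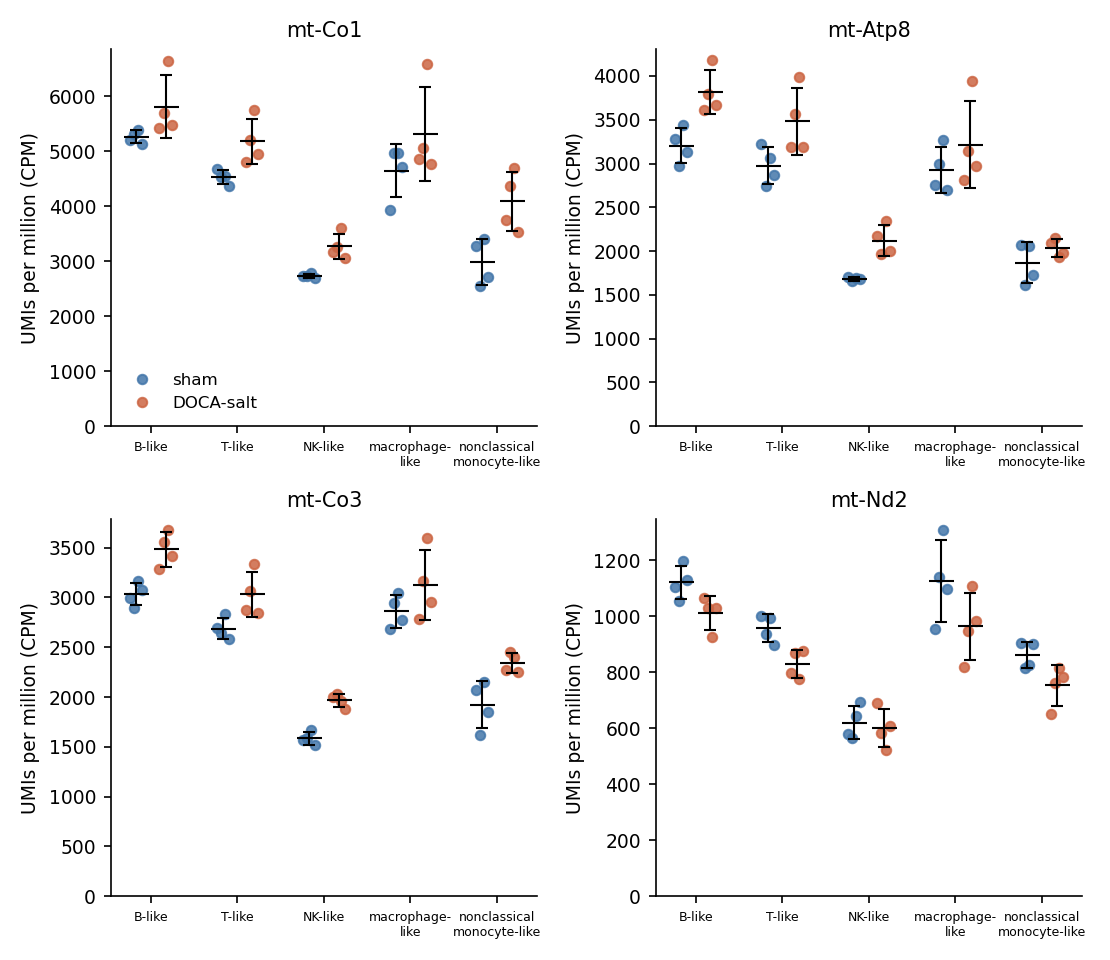
Level in CPM of mt-Co1, mt-Atp8, mt-Co3 and mt-Nd2 in each mouse and class, with 1 point per mouse and bars for the mean and SD. In NK-like cells the DOCA-salt mice of mt-Co3, at 1883 to 2027 CPM, lie above the sham mice, at 1516 to 1669 CPM, and for mt-Nd2 the groups overlap.

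Summed by complex, the 3 mitochondrial genes of complex IV separated the groups in 4 of the 5 classes and the 7 of complex I in none. The complex IV genes took 1.12% to 1.20% of UMIs in sham and 1.21% to 1.44% in DOCA-salt B-like cells. The ranges were 0.942% to 1.01% and 1.05% to 1.24% in T-like cells, 0.607% to 0.640% and 0.703% to 0.808% in NK-like cells, and 0.617% to 0.804% and 0.817% to 0.969% in nonclassical monocyte-like cells. In macrophage-like cells they overlapped, at 0.963% to 1.14% and 1.07% to 1.41%. Complex I genes took a mean of 0.592% in sham and 0.593% in DOCA-salt B-like cells, 0.509% and 0.504% in T-like cells and 0.341% and 0.364% in NK-like cells. The 2 ATP synthase genes were higher without overlap in B-like cells (0.427% to 0.493% against 0.506% to 0.573%) and NK-like cells (0.244% to 0.256% against 0.286% to 0.322%).

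The ratio of complex IV to complex I transcripts within the mitochondrial set was higher after DOCA-salt in all 5 classes, without overlap in each. This ratio was chosen after the values of the members were seen, and it has no test. It is the log2 of the UMIs of mt-Co1, mt-Co2 and mt-Co3 over those of the 7 mt-Nd genes. In B-like cells it was 0.93, 1.04, 0.93 and 0.94 in sham mice and 1.05, 1.08, 1.27 and 1.07 in DOCA-salt mice. Sham mouse 2 and DOCA-salt mouse 1 lay close together, and the means were 0.96 ± 0.05 and 1.12 ± 0.10. T-like cells gave 0.95, 0.97, 0.94 and 0.97 in sham and 1.16, 1.16, 1.21 and 1.08 in DOCA-salt mice, and NK-like cells gave 0.92, 0.86, 0.86 and 0.82 in sham and 0.94, 1.09, 1.18 and 0.96 in DOCA-salt mice.

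Both tested myeloid classes showed the ratio shifted the same way. It was not computed for the myeloid classes with too few mice for a test. Macrophage-like cells, whose single mitochondrial genes all overlapped, had 0.92, 0.86, 0.77 and 0.89 in sham and 1.11, 1.07, 1.03 and 0.997 in DOCA-salt mice. Nonclassical monocyte-like cells had 0.76, 0.61, 0.81 and 0.90 in sham and 1.16, 1.09, 1.27 and 1.07 in DOCA-salt mice, with means of 0.77 ± 0.12 and 1.15 ± 0.09. In both classes every DOCA-salt mouse lay above every sham mouse.

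Counting the main one, the separation of this ratio held in 11 of 12 choices of cells in B-like and 11 of 11 in T-like cells. It held in 9 of 11 in NK-like cells and 10 of 10 in each myeloid class. The choices share mice and most cells. With all variable genes used, the ranges of T-like and NK-like cells were the same as in the main choice. These counts are thus no independent check of a ratio chosen after its members were seen. The groups overlapped in B-like cells when the unnamed cluster of low-UMI cells was added, and in NK-like cells with no limit on mitochondrial UMIs and among cells without a C1q UMI. In that unnamed cluster itself, cluster 5, the ratio was 1.10 ± 0.12 in sham and 1.10 ± 0.08 in DOCA-salt mice, and in unnamed cluster 6, which held B and macrophage genes, 0.90 ± 0.08 and 1.09 ± 0.12, with overlap in both. All 3 complex IV genes and 3 of the 7 complex I genes have near-identical copies on chromosome 1, partial for mt-Co1 and mt-Nd4. The part of those copies in the ratio was not tested.

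**Figure D4:**
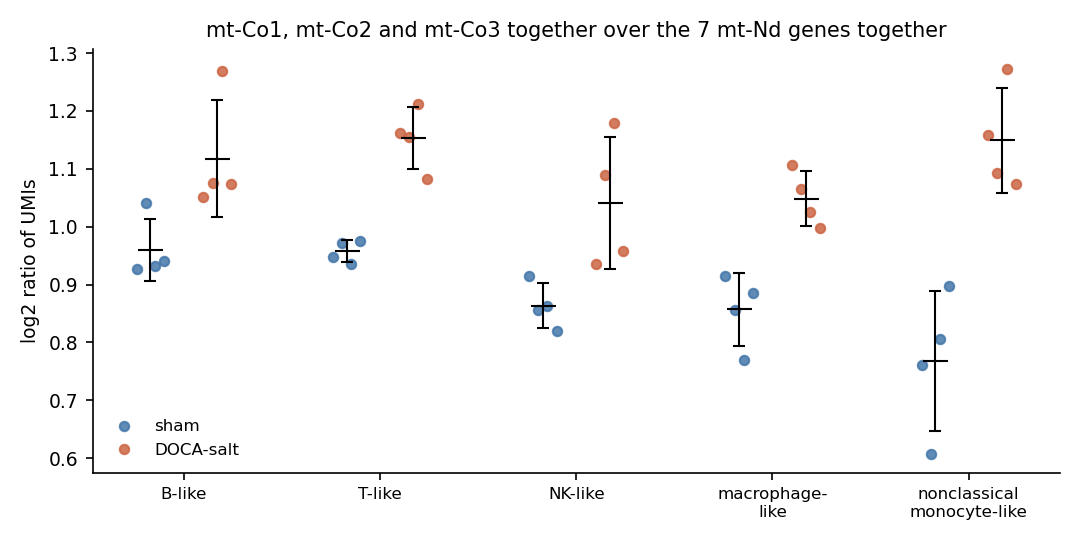
Log2 ratio of the summed UMIs of mt-Co1, mt-Co2 and mt-Co3 to those of the 7 mt-Nd genes, with 1 point per mouse and bars for the mean and SD, in 5 classes. The DOCA-salt mice lie above the sham mice in every class, most closely in B-like cells (1.04 for the highest sham mouse and 1.05 for the lowest DOCA-salt mouse) and NK-like cells (0.92 and 0.94).

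None of the nuclear genes was called in any class, and the share of UMIs from the whole set overlapped between groups. Of its 97 genes 94 had at least 1 UMI, 88 entered a test in at least 1 class, and those untested had too few UMIs. The genes at 0 UMIs were Cox7b2, Cox8c and the second Atp5o identifier. edgeR tested 88 in B-like, 84 in T-like, 84 in NK-like, 76 in macrophage-like and 61 in nonclassical monocyte-like cells and called 0 in each. At an unadjusted p under 0.05 there were 5, 1, 7, 9 and 0 in that order, and DESeq2 called 0 in each class. As shares of the genes tested, these were 5.68% against 13.03% of all genes in B-like, 1.19% against 8.41% in T-like, 8.33% against 9.52% in NK-like, 11.8% against 9.36% in macrophage-like and 0% against 12.8% in nonclassical monocyte-like cells.

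That share had means of 1.58% and 1.57% in B-like, 1.82% and 1.82% in T-like, 2.27% and 2.26% in NK-like, 1.36% and 1.498% in macrophage-like and 1.63% and 1.75% in nonclassical monocyte-like cells. The median log2 change of the nuclear genes was 0.01 in B-like, 0.03 in T-like, -0.03 in NK-like, 0.14 in macrophage-like and 0.12 in nonclassical monocyte-like cells. By complex, the nuclear sums overlapped in the lymphoid classes except for complex III in NK-like cells, which took 0.198% to 0.199% of UMIs in sham and 0.192% to 0.196% in DOCA-salt mice, lower without overlap.

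None of the genes at the core of each complex was called in any class. They were Ndufv1 and Ndufs1 (complex I, the NADH-binding subunit and the largest iron-sulfur subunit), Sdha and Sdhb (complex II, the flavoprotein and the iron-sulfur subunit), Uqcrc1 (a core protein of complex III), Cox4i1 (complex IV) and Atp5a1 and Atp5b (the alpha and beta subunits of the ATP synthase). In B-like cells Sdha was 119 ± 11.0 CPM in sham, against 120.5 ± 5.95 CPM after DOCA-salt, Cox4i1 609 ± 37.8 and 621 ± 25.9 CPM and Atp5a1 338 ± 34.5 and 336 ± 2.51 CPM. The nuclear genes with the most UMIs over all cells were Atp5e (31048 UMIs), Cox8a (28524), Cox4i1 (27857), Cox7c (21725) and Uqcrh (21405), small or regulatory subunits of the ATP synthase and complexes IV and III. Over these core and most counted genes the log2 change lay between -0.15 and 0.12 in B-like, -0.11 and 0.21 in T-like, -0.24 and 0.18 in NK-like, -0.29 and 0.41 in macrophage-like and -0.27 and 0.25 in nonclassical monocyte-like cells, and edgeR called none of them. The sign of these small changes turned in at least 1 setting for 26 of 58 pairs of gene and class (74 of 1262 values).

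Ndufaf4, an assembly factor of complex I on chromosome 4 (24898083 to 24905001, GRCm38), had the largest log2 change of the nuclear genes tested in B-like and in NK-like cells. It was named after its values were seen. In NK-like cells it was 25.1, 22.8, 9.73 and 23.9 CPM in sham, against 49.3, 40.6, 31.0 and 38.2 CPM after DOCA-salt. The groups did not overlap, and the log2 change of 0.83 with an SE of 0.24 did not pass the test (edgeR adjusted p = 0.0904). In B-like cells it was 25.0, 20.4, 9.82 and 25.5 CPM in sham, against 38.2, 42.0, 32.1 and 29.2 CPM after DOCA-salt, with a log2 change of 0.76 and an SE of 0.20 (edgeR adjusted p = 0.0822). It was called in B-like cells only when no filter on low counts was applied (edgeR adjusted p = 0.00786). In T-like cells the groups overlapped, with a log2 change of 0.26. Sham mouse 3 was the lowest mouse in both B-like and NK-like cells.

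A few other nuclear genes separated the mice without passing the test, and they too were named after their values were seen. In B-like cells Cox7a2 (192 to 213 against 216 to 226 CPM) and Uqcrq (110 to 130 against 134 to 145 CPM) were higher with Ndufaf4. That made 3 of 88 higher, against 3.29% of all genes. In NK-like cells Ndufb10 and Atp5a1 were higher with Ndufaf4, 3 of 84, against 3.9% of all genes. Uqcrh and Ndufaf8 were lower there, 2 of 84, against 2.23% of all genes. In T-like cells Ndufv3 and Ndufa7 were higher, 2 of 84, against 2.24% of all genes. These shares stood near those of all genes.

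Macrophage-like cells had the largest share of nuclear genes above 0 among the 5 classes. Of 76 nuclear genes tested, 63 (82.9%) had a log2 change above 0, against 49.7% of all 4391 genes, and 5 were higher without overlap, against 3.64% of all genes, and 0 were lower, where 2.64% of all genes were. Genes of 1 pathway move together from mouse to mouse and are not independent, so these counts carry no test. The 5 were Ndufs3, a core subunit of complex I (48.1 to 57.1 against 65.6 to 93.3 CPM), Cox4i1 (580 to 619 against 648 to 798 CPM), Atp5l (260 to 328 against 359 to 420 CPM), the complex I assembly factor Ndufaf8 (25.3 to 38.4 against 43.1 to 59.4 CPM) and Uqcrfs1, the Rieske iron-sulfur protein of complex III (57.1 to 119 against 120 to 128 CPM). By complex, 32 of 37 complex I genes, 6 of 8 of complex III, 10 of 11 of complex IV and 13 of 15 of the ATP synthase lay above 0, but 1 of 4 of complex II. Ndufa4 is counted with complex I by its name, although the protein is known as a subunit of complex IV. The summed share nonetheless overlapped, at 1.22% to 1.48% in sham and 1.30% to 1.77% in DOCA-salt mice. Outside the rule, 37 of 47 mitochondrial ribosomal protein genes also lay above 0 here. So did 5 of 6 of mitophagy and dynamics and 6 of 8 other chain components. Lower shares held for other assembly factors (7 of 12) and the tricarboxylic acid cycle (7 of 14). Of mitochondrial transcription and of biogenesis regulators 1 of 5 and 1 of 4 did. DOCA-salt mouse 1 had the highest nuclear share and median UMIs per cell (5291), and the part of depth was not tested.

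In nonclassical monocyte-like cells mt-Co1 had the largest change of the mitochondrial set. Its level was 3273, 2554, 3393 and 2716 CPM in sham, against 3756, 4361, 4694 and 3532 CPM after DOCA-salt. The groups did not overlap, and the log2 change of 0.45 with an SE of 0.14 did not pass the test (edgeR adjusted p = 0.104). mt-Co3, at 1622 to 2155 against 2248 to 2456 CPM, also did not overlap (log2 change 0.29, edgeR adjusted p = 0.333). Of 61 nuclear genes 1, Atp5a1 (278 to 321 against 343 to 385 CPM), was higher without overlap, where 3.38% of all genes were. None of the 61 was lower, where 4.27% of all genes were. Only 16 to 41 cells per DOCA-salt mouse and 18 to 39 per sham mouse stand behind these values.

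**Figure D5:**
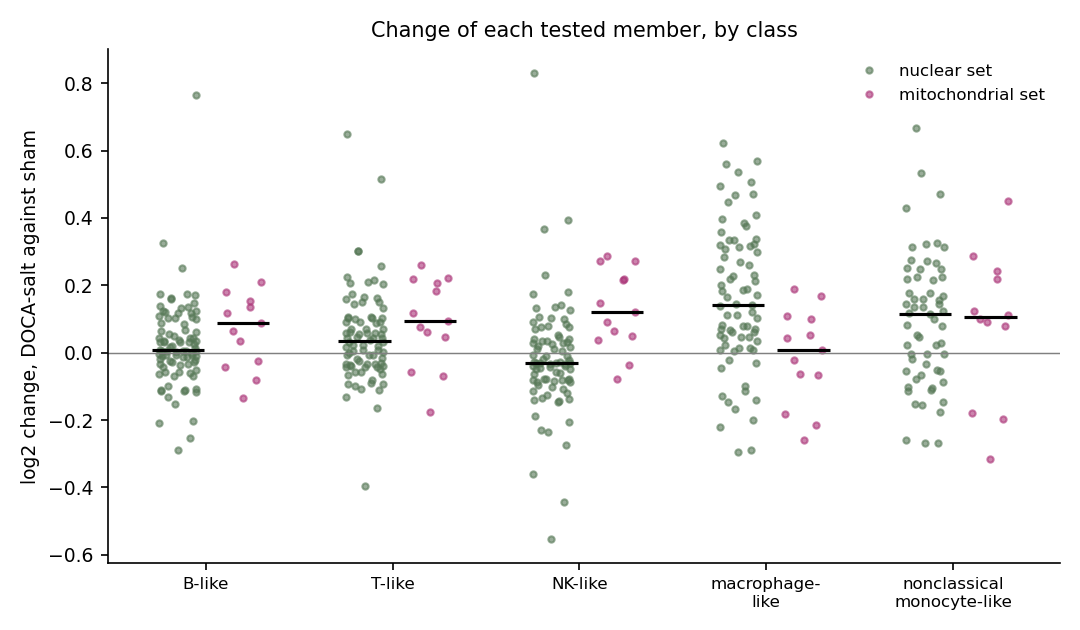
Log2 change (DOCA-salt against sham, edgeR) of every tested member in each class, the mitochondrial and the nuclear set side by side, with 1 point per gene. In macrophage-like cells 63 of 76 nuclear genes lie above 0, and in the lymphoid classes the nuclear genes lie about 0.

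Isoforms typical of heart and skeletal muscle, Cox6a2, Cox7a1 and Cox8b, had few UMIs and were tested in no class. Over all cells of a mouse Cox6a2 was 4.45 to 12.4 CPM in sham, against 3.87 to 6.28 CPM after DOCA-salt. Cox7a1 was 1.98 to 6.18 and 1.48 to 3.29 CPM, and Cox8b 1.98 to 4.497 and 0.370 to 2.68 CPM. All 3 overlapped between groups. Summed cardiomyocyte marker genes were 35.5 to 97.8 CPM in sham, against 42.9 to 54.9 CPM after DOCA-salt, and at least 1 UMI of them was found in 5.67% to 10.2% and 6.86% to 10.5% of cells. Among the 5 classes they were most frequent in macrophage-like cells, in 34.2% of sham and 41.4% of DOCA-salt cells (237 and 249 CPM, with overlap). In NK-like cells they were at 9.20 and 15.9 CPM, with overlap.

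Genes around the chain, in 7 lists chosen by function, gave 1 call in all. The lists hold other assembly factors, other components of the chain, genes of mitochondrial transcription and RNA processing, regulators of mitochondrial biogenesis, the tricarboxylic acid cycle, mitophagy and dynamics, and mitochondrial ribosomal proteins. Of 185 genes tested in B-like cells edgeR called 1 (0.541%, against 1.45% of all genes), Ecsit, an assembly factor of complex I that also acts in innate immune signalling, which fell by 0.72 on the log2 scale (SE 0.16, adjusted p = 0.0359). DESeq2 called 0 of the 185, and 16 had an unadjusted p under 0.05. edgeR and DESeq2 called 0 of 158 in T-like, 0 of 154 in NK-like, 0 of 96 in macrophage-like and 0 of 30 in nonclassical monocyte-like cells, with 8, 7, 5 and 4 at an unadjusted p under 0.05. At that unadjusted p the lists held 8.65% of their genes in B-like, 5.06% in T-like, 4.55% in NK-like, 5.21% in macrophage-like and 13.3% in nonclassical monocyte-like cells, beside the shares of all genes given with the nuclear set.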

How the data were processed

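The authors deposited raw UMI counts per gene and barcode, made with Cell Ranger (software version 3.1.0 per the file headers) on mm10, with Seurat 4 also named in the submitters' processing notes. The deposited feature and barcode lists hold text identifiers of other kinds and no measured value. Members and lists were chosen with earlier results of these data known.

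The cell filters were 200 detected genes as a minimum and 10% UMIs from mt- genes as a maximum. Scrublet doublets (73 sham and 242 DOCA-salt) and cells whose highest hashtag count was under 2 times the second (140 and 327) were removed. Of 4359 and 7600 barcodes, 4067 and 6863 were used, and a mouse had between 1779102 and 9053322 UMIs in them.

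Both libraries were clustered together with scanpy 1.11.5 and leidenalg 0.10.2 (2000 variable genes without members or other mt- genes, 30 components, 15 neighbours, resolution 1.0, no batch correction). A cluster was named from at least 3 raised markers, and the rules for leaving one unnamed followed a first look at the clusters, so the classes are rebuilt and not the authors'. UMIs were summed per mouse and class (at least 10 cells per mouse and 3 mice per group). Genes passing filterByExpr were scaled by TMM and tested by edgeR 4.0.16 in R 4.3.3, with DESeq2 1.42.0 as an alternative. Scripts were tested on simulated data. CPM values are UMIs per 1000000 UMIs of the class and mouse, and differences are log2 fold changes with their SE. SD is over 4 mice, except in classes with too few mice for a test, where it is over the mice stated with the value.

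All mitochondrial genes are named, with nuclear genes past the threshold, a fixed core of 8, the 5 with the most UMIs, and 3 muscle isoforms. Genes and ratios outside this rule are marked as chosen after their values were seen. Positions and sequence are from GRCm38 with GENCODE M21, and copies were aligned with Biopython 1.88. Alternatives changed the cell filters, doublets, resolution, variable genes, scaling, test, low-count filter and the mice included. Surface antibody counts were not used here, and 1 result on a single gene is not reported here.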

Additional observations from a re-analysis of the deposited data

Results flagged for a closer look

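In groups of 4 mice, the highest or lowest mouse was set apart from the other 3 beyond Dixon's critical gap in 19 of 192 groups of values tested. Chance gives about 1 in 20 such groups, the values share cells and mice, and no explanation was tested.

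In B-like cells sham mouse 2 was lowest for mt-Nd4 (502 CPM, the others from 597 to 612), mt-Cytb (1885 CPM, 2133 to 2177) and Uqcrq (110.0 CPM, 129 to 129.5). DOCA-salt mouse 3 was highest for mt-Atp6 (1549 CPM, 1430 to 1445), and DOCA-salt mouse 1 was lowest for mt-Cytb (2107 CPM, 2281 to 2301). In T-like cells sham mouse 1 was highest for mt-Nd4 (518 CPM, 487 to 490.1), and DOCA-salt mouse 3 for mt-Nd5 (690.2 CPM, 487 to 497).

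In NK-like cells sham mouse 3 was highest for the mitochondrial share (1.36%, 1.30% to 1.31%) and for the log2 ratio of the sets (-0.71, -0.82 to -0.80), and lowest for Ndufaf4 (9.73 CPM, 22.8 to 25.1). With its higher share this mouse still lay below every DOCA-salt mouse.

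In macrophage-like cells the sham values set apart were mt-Atp6 in mouse 1 (933 CPM, 1227 to 1263), mt-Nd3 in mouse 2 (249.9 CPM, 286 to 291), and in mouse 3 mt-Nd5 (701 CPM, 449 to 472) and Ndufaf8 (25.3 CPM, 38.1 to 38.5). DOCA-salt mouse 3 was highest there for mt-Nd1 (1412 CPM, 1023 to 1078), mt-Co1 (6586 CPM, 4764 to 5053) and mt-Nd6 (87.5 CPM, 43.2 to 47.6). In nonclassical monocyte-like cells sham mouse 1 was highest for the log2 ratio of the sets (0.21, -0.22 to -0.15), and sham mouse 4 was lowest for mt-Nd1 (661 CPM, 1004 to 1070).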

How the results depend on the processing

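No paired analysis was possible because a hashtag number names a mouse inside 1 library only, and nothing matches animals of the groups with each other. The cause of each change below was not tested, except where a setting tests other genes or fewer cells or mice.

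The mitochondrial share of NK-like cells was higher in DOCA-salt mice without overlap under all 10 other choices of cells, and the nuclear share overlapped in every class and choice of cells. Depth limited the tests most in nonclassical monocyte-like cells, where 1686 genes entered against 8610 in B-like cells.

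The number of mitochondrial genes called in B-like cells went from 2 to 1 by DESeq2 and with a hashtag margin of 5, and to 0 without C1q cells. In NK-like cells it went from 2 to 1 with that margin and without cells holding cardiomyocyte UMIs, and to 0 without C1q cells. In nonclassical monocyte-like cells it went from 0 to 1 with no low-count filter and with doublets kept. With 1 mouse left out it ran from 0 to 2 in B-like and in NK-like cells. Over all alternatives the log2 change of mt-Atp8 stayed between 0.23 and 0.29 in B-like and 0.24 and 0.33 in NK-like cells, and that of mt-Co3 between 0.19 and 0.24 and between 0.21 and 0.31. The nuclear count in B-like cells became 1 (Ndufaf4) with no low-count filter. The NK-like difference in mitochondrial share was 0.270 points with no mitochondrial limit. The nonclassical monocyte-like differences were -0.0188 points in share and -0.13 in log2 ratio as medians over cells.

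Of all genes, edgeR with no low-count filter called 266 in B-like, 128 in T-like, 120 in NK-like and 146 in macrophage-like cells. Without C1q cells it called 50, 6 and 36 in the lymphoid classes (B-like, T-like, NK-like). At resolution 0.5 it called 46 in T-like and 203 in nonclassical monocyte-like cells. The nonclassical monocyte-like cluster there held 391 cells and also had classical monocyte markers raised, Chil3, Vcan and Fn1 among them. DESeq2 called 40 and a hashtag margin of 5 gave 38 in NK-like cells. In macrophage-like cells a 5% mitochondrial limit gave 8 and leaving out cells with cardiomyocyte UMIs 3. With 1 mouse left out the counts ran from 65 to 105 in B-like, 18 to 42 in T-like, 37 to 73 in NK-like, 3 to 23 in macrophage-like and 14 to 36 in nonclassical monocyte-like cells.

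Small log2 changes that were not called turned sign as follows. In B-like cells without C1q UMIs mt-Nd1 was -0.0104, mt-Nd4 0.0105 and mt-Nd6 0.0806, and with 1 mouse left out mt-Nd1 ran from -0.0107 to 0.0683, mt-Nd3 from -0.0804 to 0.0113, mt-Nd4 from -0.0689 to 0.0151 and mt-Nd6 from -0.19 to 0.0355. In T-like cells mt-Nd6 was 0.0057 with no mitochondrial limit, 0.0353 at resolution 0.5, 0.0556 without cardiomyocyte UMIs and 0.20 without C1q UMIs, and with 1 mouse left out mt-Nd1 ran from -0.0463 to 0.11, mt-Nd5 from -0.0573 to 0.15 and mt-Nd6 from -0.20 to 0.0076. In NK-like cells mt-Nd2 was 0.0117 and mt-Nd3 0.005 with no mitochondrial limit, mt-Nd3 0.0081 with doublets kept and mt-Nd6 -0.0032 without C1q UMIs, and with 1 mouse left out mt-Nd3 ran from -0.0842 to 0.0292, mt-Nd4 from -0.0511 to 0.13 and mt-Nd6 from -0.15 to 0.43. In macrophage-like cells mt-Atp6 was 0.0457, mt-Nd5 0.0039 and mt-Cytb 0.003 with no low-count filter. There mt-Nd4l was -0.007 at a 20% mitochondrial limit, -0.0096 with a hashtag margin of 5 and -0.0101 without cardiomyocyte UMIs, and mt-Nd4 was -0.0203 at a 5% limit and -0.13 without cardiomyocyte UMIs. With 1 mouse left out mt-Atp6 ran from -0.10 to 0.0312, mt-Atp8 from -0.0093 to 0.18, mt-Co2 from -0.0468 to 0.10, mt-Cytb from -0.14 to 0.0174, mt-Nd4 from -0.11 to 0.16, mt-Nd4l from -0.08 to 0.0663 and mt-Nd5 from -0.23 to 0.12. In nonclassical monocyte-like cells mt-Nd4l was -0.0037 at a 5% limit and mt-Nd4 -0.0738 with a hashtag margin of 5, and with 1 mouse left out mt-Nd4 ran from -0.0557 to 0.26. In all, 50 of 1395 values of mitochondrial genes changed sign, and 0 of 370 values of the nuclear genes without overlap did. Those nuclear genes were chosen because their mice did not overlap, which largely keeps the sign when 1 mouse is left out. The counts are therefore not comparable.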

Other observations

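Classes with too few mice for a test also held both sets. In DOCA-salt mice the mitochondrial share was 0.958% ± 0.240 and the nuclear share 1.14% ± 0.0335 (SD, n = 4) in neutrophil-like cells, the lowest shares of the named classes. Among classical monocyte-like cells, the 4 DOCA-salt mice had 1.78% ± 0.295 and 1.94% ± 0.0731, and the single sham mouse with enough cells had 2.29% and 1.58%. That sham mouse had 11 such cells with a median of 3426 UMIs, and the medians of the DOCA-salt mice averaged 8688. Type 2 dendritic-like cells, led by Cd209a, also had the type 1 dendritic markers Clec9a, Wdfy4 and Irf8 raised. They had 2.04% ± 0.514 and 1.95% ± 0.0440 in 2 sham mice. In 3 DOCA-salt mice they had 1.79% ± 0.414 and 1.96% ± 0.172, with overlap in both shares. Type 2 innate lymphoid-like cells of 3 DOCA-salt mice had 2.03% ± 0.143 and 1.78% ± 0.0162, and gamma-delta T-like cells of 3 DOCA-salt mice 2.28% ± 0.462 and 2.20% ± 0.0564.

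Cluster 5 stayed unnamed because of its low UMI counts (a mean over mice of the median per cell of 893 in sham and 882 in DOCA-salt mice), although 8 B markers were raised in it. Its mitochondrial share was 5.35% ± 0.496 in sham and 5.39% ± 0.421 in DOCA-salt mice, its nuclear share 0.771% ± 0.07 and 0.804% ± 0.0904, and its log2 ratio 2.79 ± 0.23 and 2.75 ± 0.26. These values overlapped between groups and lay apart from those of every named class above.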
